A study of Mus musculus with 14 samples.

Results

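The RIG-I response of 2 mouse tumour cell lines was compared gene by gene, as the change with a RIG-I agonist in E0771 minus the change in MC38. The comparison used 8 of the 14 libraries of the study, picked by cell line from the sample titles, with 4 libraries per line. E0771 is a mammary carcinoma line and MC38 a colon adenocarcinoma line, both from C57BL/6 mice. E0771 was grown in RPMI and MC38 in DMEM, so line and medium cannot be told apart, and each line stands for itself and not for its tumour type. In each line 2 libraries came from cells given 0.5 ug/ml of a control agonist and 2 from cells given the same dose of the RIG-I agonist. Cells had been plated at 100000 per well, and poly(A) RNA was taken 24 h after the agonist for stranded libraries. Both groups of a line received an agonist, so every level called a control level here is that with the control agonist. The labels do not say that libraries came from separate cultures, and p-values then describe variation among the libraries at hand, part of which may be technical.

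RIG-I, encoded by Ddx58, is a cytosolic sensor of RNA with a free triphosphate end. Through the mitochondrial adaptor MAVS it activates the transcription factors IRF3, IRF7 and NF-kB, which switch on interferon beta and inflammatory genes. Secreted interferon then acts back on the cells through JAK kinases and STAT and IRF factors, which raise many interferon-stimulated genes, among them the sensors themselves. Many of these genes are also expressed at a low level without a stimulus, and that level differs between cells.

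A difference of effects on a log2 scale is the difference between the lines with the RIG-I agonist minus their difference with the control agonist. An effect difference above 0 therefore arises in 2 ways, by a lower control level in E0771 or by a higher level reached with the RIG-I agonist. All 3 quantities are given below as E0771 minus MC38 on the log2 scale. They are named the effect difference, the control-level difference and the agonist-level difference. Their standard error (SE) was derived from the test statistic of a fit in which the 4 groups of 2 libraries share 1 spread. It is therefore not the replicate spread of any 1 group, and at few counts it can be smaller than counting error. For effects within a line the SE comes from that line's own fit. Levels are CPM, a gene's count scaled to a common library total, in the order library 1 and library 2. All adjusted p-values come from edgeR's quasi-likelihood test with Benjamini-Hochberg adjustment over all genes tested, and a gene was called at an adjusted p under 0.05.

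Total counts per library were 12413347 to 13399247 in E0771 and 12347361 to 18964563 in MC38. The replicates of E0771 were further apart than those of MC38. The biological coefficient of variation was 0.202 in E0771, 0.0304 in MC38 and 0.139 when both lines were fitted together. Mitochondrially encoded genes took 2.82% and 5.8% of the counts in the E0771 control libraries, 0.81% and 2.21% with the RIG-I agonist, 5.0% and 4.79% in the MC38 controls and 3.2% and 3.01% with the RIG-I agonist. Of 16 mammary epithelial markers 1, the keratin gene Krt8, was above 5 CPM in E0771, at 207.9 to 274 CPM, and 5 had no count. Of 15 intestinal epithelial markers 1 was above 5 CPM in MC38 and 6 had no count. Most of each line's own epithelial markers were therefore under 5 CPM. The 18 leukocyte markers summed to 7.86 to 12.7 CPM in E0771 and to 25.5 to 42.5 CPM in MC38, where Cd14 made up most of the sum and the sum was higher with the RIG-I agonist. The 8 endothelial markers summed to 8.78 to 16.8 CPM over both lines. The 10 fibroblast markers summed to 2228 to 3316 CPM in E0771 and 1714 to 2190 in MC38, most of it vimentin (Vim). This sum was lower with the RIG-I agonist in both lines. Not all members followed the sum, among them Pdgfrb and Acta2 in E0771 and Dcn and Fap in MC38. The part of these markers in the results was not tested.

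The promoter sequences of 5 genes are shown because they stand for the ways in which an effect difference arose. Isg15 and Gbp2 had a lower control level in E0771 and levels within 2-fold of each other with the RIG-I agonist, whereas Ifi208, Slfn5 and Irf7 reached a higher level in E0771. Each sequence holds the 200 bases before the gene's start site in RefSeq on GRCm38.p6, 5′ to 3′ on the gene's strand, with every match to the core of the interferon-stimulated response element (ISRE), GAAANNGAAA on either strand, in capitals.
Isg15, chr4:156200819-156201018, minus strand: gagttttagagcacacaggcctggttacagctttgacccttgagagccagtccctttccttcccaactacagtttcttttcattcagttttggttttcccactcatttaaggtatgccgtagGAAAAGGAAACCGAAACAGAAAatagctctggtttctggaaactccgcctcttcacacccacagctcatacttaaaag
Gbp2, chr3:142620463-142620662, plus strand: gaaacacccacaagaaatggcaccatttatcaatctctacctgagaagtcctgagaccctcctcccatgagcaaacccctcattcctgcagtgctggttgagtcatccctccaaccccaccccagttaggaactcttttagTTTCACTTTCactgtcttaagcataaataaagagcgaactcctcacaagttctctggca
Ifi208, chr1:173673465-173673664, plus strand: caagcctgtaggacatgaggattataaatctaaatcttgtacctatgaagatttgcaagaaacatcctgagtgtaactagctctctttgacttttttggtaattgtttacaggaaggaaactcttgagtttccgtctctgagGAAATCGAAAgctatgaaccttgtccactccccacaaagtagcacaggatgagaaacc
Slfn5, chr11:82951902-82952101, plus strand: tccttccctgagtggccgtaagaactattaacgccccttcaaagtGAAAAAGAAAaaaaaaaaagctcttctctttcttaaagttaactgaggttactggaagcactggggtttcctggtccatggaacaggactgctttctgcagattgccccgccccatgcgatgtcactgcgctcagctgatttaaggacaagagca
Irf7, chr7:141266425-141266624, minus strand: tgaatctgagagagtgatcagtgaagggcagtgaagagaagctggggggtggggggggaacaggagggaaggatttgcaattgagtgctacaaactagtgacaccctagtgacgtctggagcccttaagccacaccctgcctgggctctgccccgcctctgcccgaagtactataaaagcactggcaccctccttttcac
Isg15 held 3 overlapping matches that began 78, 72 and 66 bases before the start site. Gbp2 and Ifi208 held 1 match each, at 59 and 58 bases, with that of Gbp2 on the opposite strand, and Slfn5 held 1 at 155 bases. The letters were not found in the window of Irf7.

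Over windows from 250 bases before to 50 after the start, 3.99% of the 27025 genes in the RefSeq table held the ISRE core. Of the 85 genes whose effect was called higher in E0771, 69 had a window and 25 of them (36.2%) held it. The core was found in 23 of 59 genes whose lines were further apart with the control agonist and in 2 of 10 whose lines were further apart with the RIG-I agonist, where the 2 were Ifi208 and Slfn5. It was found in 24 of 52 genes that rose in both lines and in none of 11 that fell in MC38. The core of the gamma-activated site, TTCNNNGAA, which can overlap the ISRE core, was in 10 of the 69 windows (14.5%) and in 9.55% of all genes. A match is a run of letters and not a measured binding site.

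Nearly all genes with a called effect difference had the higher signed effect in E0771, and most of them rose in both lines and started from a lower level in E0771. Of 13082 genes tested, 85 had a higher effect in E0771 (0.65%) and 2 had a lower one (0.0153%). Of the 85, 66 rose in both lines, 4 rose in E0771 and were not called in MC38, 13 fell in MC38 and were not called in E0771, and 2, Kalrn and Prkcd, were called in neither line. These are bulk libraries, so a response in more cells and a larger response per cell cannot be told apart. The median effect difference of the 85 was 2.18, against 0.01 over all genes tested, and it was 1 or more in 73 of them, while 1435 of the 13082 genes tested were at 1 or more in either direction. The 85 were called on this same difference, so its size among them follows in part from the selection. Without any 1 of the 4 MC38 libraries the call held for 4 genes, Gbp2, Gbp3, Oasl1 and Zbp1, and for none with a lower effect. Leaving out 1 E0771 library gave 74 to 144 genes with a higher effect and 2 to 8 with a lower one. Of the 85, the call held for 62 without E0771 control 1, for 51 without control 2, for 84 without RIG-I library 1 and for 69 without RIG-I library 2. All 85 kept their direction in each of these fits.

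The control-level difference was larger in size than the agonist-level difference in 72 of the 85 genes. With a positive effect difference this sorting fixes a control-level difference below 0, so its sign is no separate result. All 72 were also called lower in E0771 with the control agonist, as were 32.8% of all genes tested, which were not sorted in this way. Their median control-level difference was -2.56 and their median agonist-level difference -0.37. With the RIG-I agonist 27 of the 72 did not differ by the test, 34 were still called lower in E0771, as were 31.0% of all genes tested, and 11 were called higher, as were 30.5%. The 2 lines were within 2-fold of each other in 5 of the 72 genes with the control agonist and in 54 with the RIG-I agonist, against 63.3% and 65.8% of all genes tested. The sorting picked genes with the wider gap under the control agonist, so these counts describe the 72 and are no separate result. The other 13 genes were further apart with the RIG-I agonist. With a positive effect difference this sorting fixes their agonist-level difference above 0. All 13 were also called higher in E0771 with the RIG-I agonist, with a median agonist-level difference of 1.63. With the control agonist 6 were called higher (30.6% of all genes tested), 2 lower and 5 were not called.

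**Figure D1:**
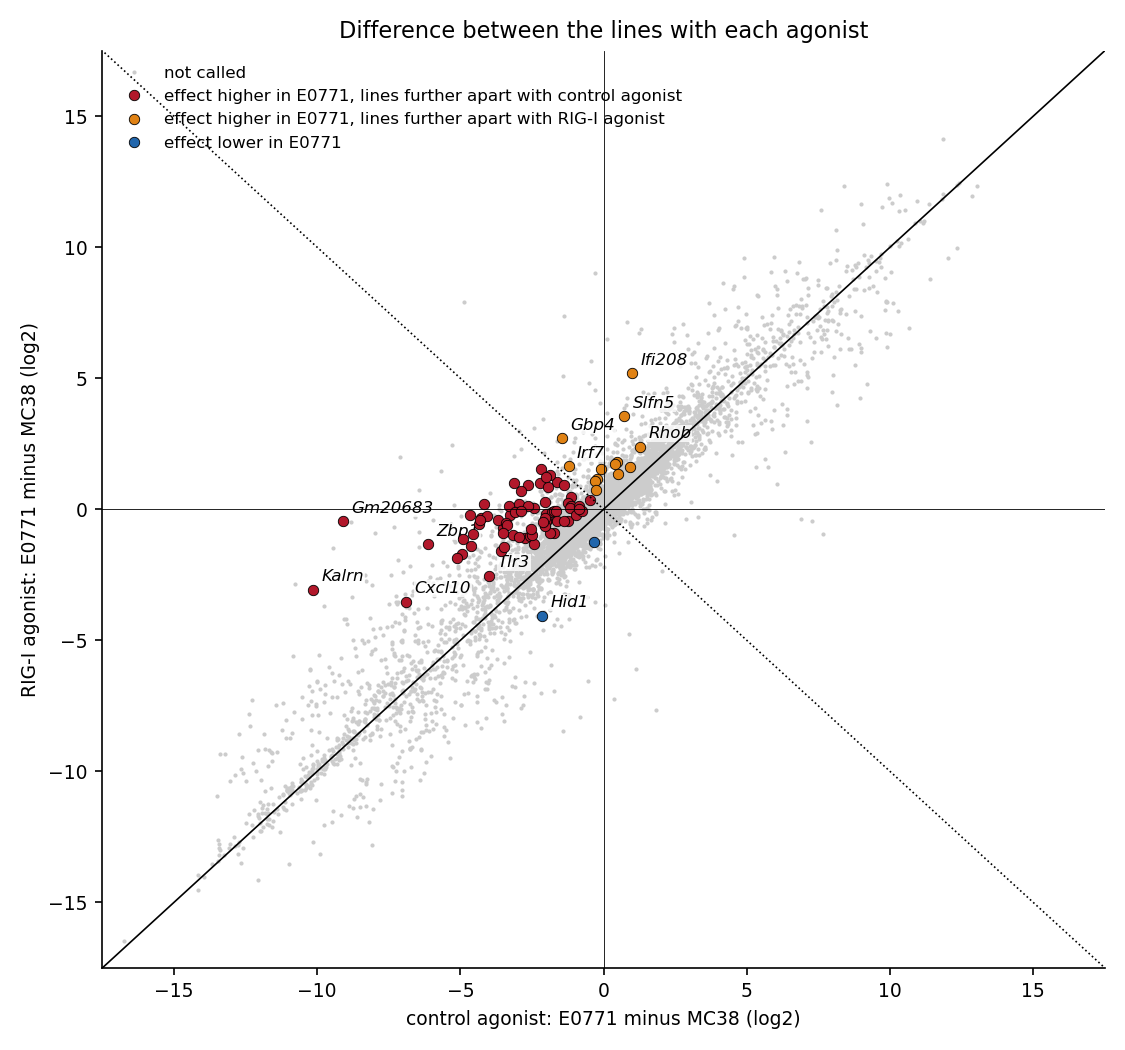
Difference between the lines (E0771 minus MC38, log2) with the control agonist on the horizontal axis and with the RIG-I agonist on the vertical axis, 1 point per gene, where the distance above the solid diagonal is the effect difference and the dotted diagonal, with the solid one, bounds the genes that are further apart with the control agonist. Because of how the genes were sorted, the 72 red points lie left of 0 and the 13 orange points lie above 0. The 2 genes with a lower effect in E0771 lie below the solid diagonal.

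The median level of the 66 genes of the 85 that rose in both lines describes the same selection and is not separate support. It was 14.04 and 7.97 CPM in the E0771 control libraries and 60.7 and 61.9 CPM in the MC38 controls. With the RIG-I agonist it was 147 and 164 CPM in E0771 and 193 and 194 CPM in MC38. The median of these 66 genes was thus lower in E0771 than in MC38 with both agonists, and by less with the RIG-I agonist. The median over all genes tested was 27.6 to 29.9 CPM in every library. Single genes differed, and with the RIG-I agonist 28 of the 66 were called lower in E0771, 14 higher and 24 were not called. Over all genes tested 31.0% were called lower and 30.5% higher. By each line's own test, whatever their effect difference, 130 genes rose at least 2-fold in both lines. With the control agonist 105 of the 130 were called lower in E0771 and 7 higher, against 32.8% and 30.6% of all genes tested. With the RIG-I agonist 40 were called lower and 36 higher, against 31.0% and 30.5%. The 130 were still picked on rises measured from the same control libraries. The first E0771 control library was above the second in 66 of the 85 genes, against 6319 of all 13082 genes tested.

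**Figure D2:**
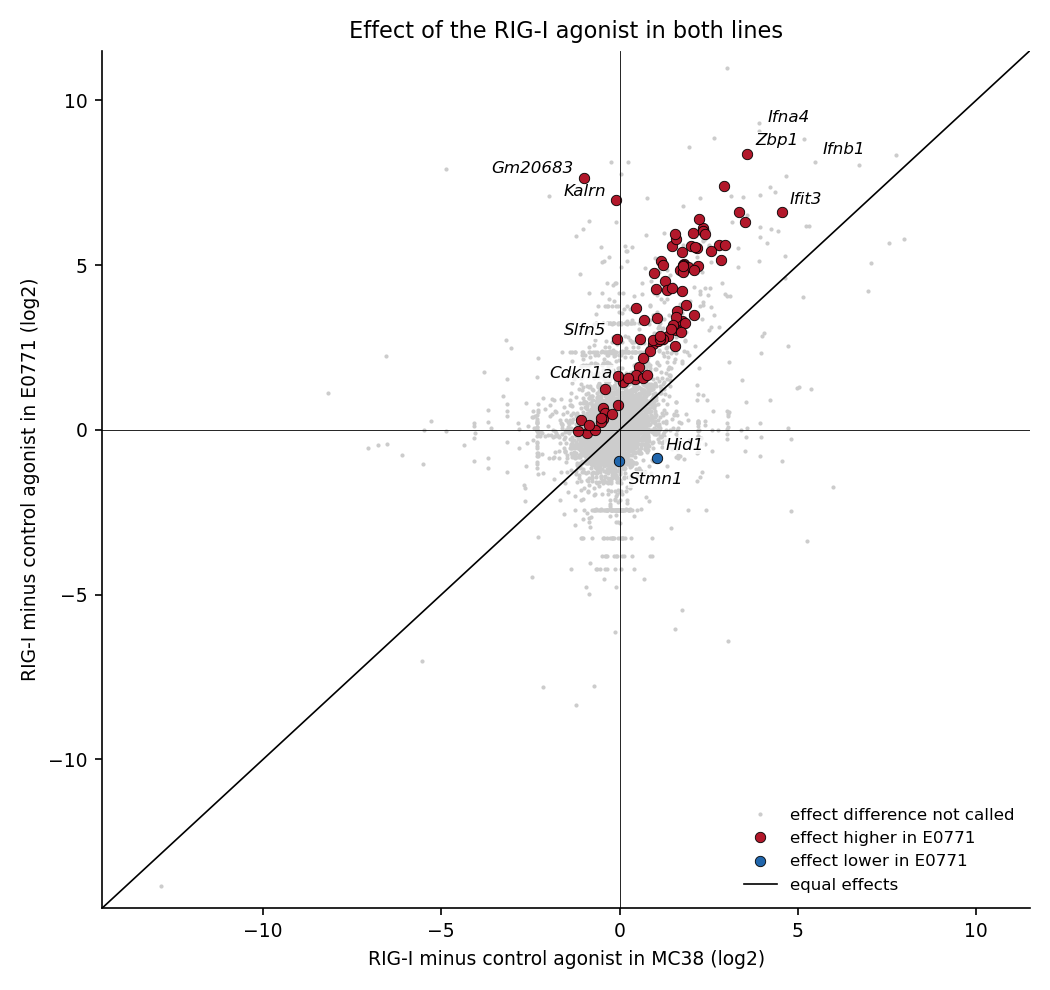
Change with the RIG-I agonist (log2) in MC38 on the horizontal axis and in E0771 on the vertical axis from the fit of both lines, 1 point per gene, with a diagonal of equal effects. The 85 genes with a higher effect in E0771 lie above the diagonal, most of them up in both lines, and Hid1 and Stmn1 lie below it.

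The 4 genes named above stayed called whichever of the 8 libraries was left out, and each rose in both lines. Zbp1 (ENSMUSG00000027514.14, chromosome 2 at 173206612 to 173218923 on GRCm38) encodes a sensor of Z-form nucleic acids that can start necroptosis. It was at 0.230 and 0.406 CPM in the E0771 control libraries and 98.9 and 118 with the RIG-I agonist, and at 23.04 and 22.5 and then 272 and 269.7 in MC38. Both E0771 controls were far below the MC38 controls, and the E0771 agonist libraries stayed below those of MC38. The effect difference was 4.81 (SE 0.27, adjusted p = 0.00113), made of a control-level difference of -6.13 (SE 0.22) and an agonist-level difference of -1.32 (SE 0.11). The E0771 control libraries of Zbp1 held 8 counts together, so the SE of the first 2 differences may understate counting error. Gbp2 and Gbp3 encode guanylate-binding proteins, which attack membranes around intracellular pathogens. Gbp2 (chromosome 3 at 142620602 to 142638008) was at 3.30 and 2.68 CPM in the E0771 control libraries and 233 and 188 with the RIG-I agonist, and at 61.2 and 61.6 and then 309 and 313 in MC38. Its effect difference was 3.79 (SE 0.20, adjusted p = 0.00113) and its agonist-level difference -0.56 (SE 0.12). Gbp3 (chromosome 3 at 142560026 to 142573209), which shares reads with its relatives, had an effect difference of 2.82 (SE 0.15, adjusted p = 0.00113) and went to 321 and 346 CPM in E0771 and 531 and 550.3 CPM in MC38. Oasl1 (chromosome 5 at 114923240 to 114937915), an OAS-like protein that limits translation of Irf7, was at 8.21 and 5.69 CPM in the E0771 control libraries and 199 and 177 with the RIG-I agonist, and at 213 and 206 and then 403 and 412 in MC38. MC38 controls were above the agonist level of E0771, and the effect difference was 3.79 (SE 0.21, adjusted p = 0.00113).

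**Figure D3:**
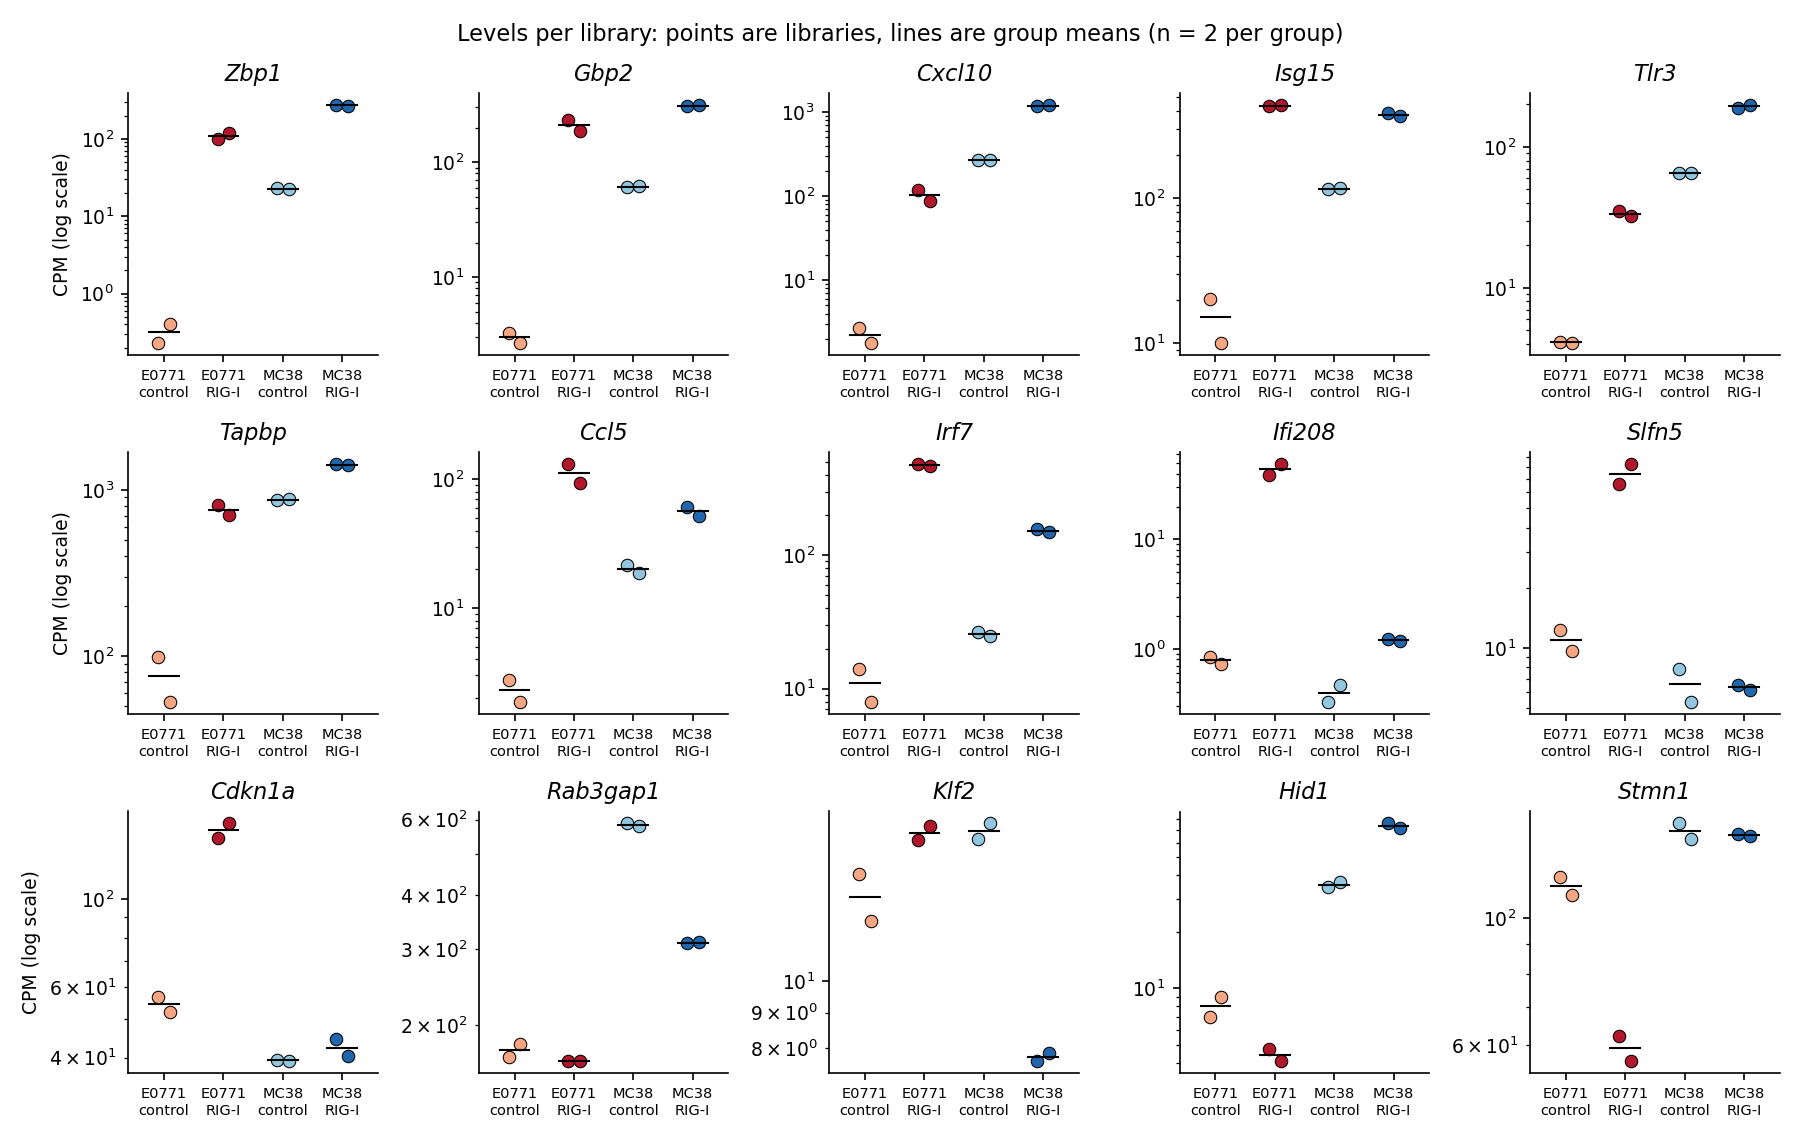
CPM of 15 genes on a log axis, with 1 point per library, a line at each group's mean and 2 libraries per group. From Zbp1 to Irf7 the E0771 controls are the lowest points, and from Ccl5 to Cdkn1a the E0771 agonist libraries are the highest. Rab3gap1 and Klf2 are lower with the RIG-I agonist in MC38, and Hid1 and Stmn1 have the lower effect in E0771.

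Among the 19 genes of RNA sensing, 5 had a called higher effect in E0771 and none a lower one, with a median effect difference of 0.60. Ddx58, which encodes RIG-I, was at 64.1 and 34.8 CPM in the E0771 control libraries and 234 and 244 with the RIG-I agonist, and at 226 and 225 and then 384 and 387 in MC38. Both E0771 libraries were below those of MC38 with either agonist, and the control-level difference was -2.19 (adjusted p = 0.000242) and the agonist-level difference -0.69 (adjusted p = 0.0354). Its effect difference of 1.499 was not called (adjusted p = 0.166), with an interval of 0.71 to 2.28. Ifih1, which encodes the sensor MDA5, was at 22.3 and 13.7 CPM in the E0771 control libraries and 173 and 202 with the RIG-I agonist, and at 75.5 and 73.8 and then 149.5 and 159 in MC38. E0771 was below MC38 with the control agonist, the agonist-level difference was 0.28 (SE 0.18), and the effect difference was 2.33 (SE 0.28, adjusted p = 0.0209). Dhx58, which encodes their relative LGP2, had an effect difference of 1.15 that was not called (adjusted p = 0.259). Mavs, the adaptor gene, was not called at -0.27 (adjusted p = 0.515).

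Tlr3, an endosomal sensor of double-stranded RNA, was at 4.14 and 4.06 CPM in the E0771 control libraries and 35.0 and 32.2 with the RIG-I agonist, and at 64.9 and 65.4 and then 190.1 and 197 in MC38. E0771 with the RIG-I agonist was below the MC38 controls, so the effect difference of 1.46 (SE 0.13, adjusted p = 0.00823) went with an agonist-level difference of -2.53 (SE 0.08). Ddx60, a helicase gene that promotes RIG-I signalling, was at 4.45 and 2.85 CPM in the E0771 control libraries and 95.4 and 162 with the RIG-I agonist, and at 72.8 and 71.2 and then 156 and 166 in MC38. The agonist libraries of the lines overlapped, and the effect difference was 3.97 (SE 0.39, adjusted p = 0.0146). Zbp1 and Irf7, also in the list, are described with the groups they resemble. Myd88, the adaptor of most Toll-like receptors, stood in no list, was picked after its values were seen, and had an effect difference of 0.92 (SE 0.14, adjusted p = 0.0430).

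Of 20 type I and III interferon genes, 3 had enough counts to be tested, and none of the 3 had a called effect difference. Ifnb1, which encodes interferon beta, had 1 control count and 360 agonist counts in E0771, a ratio of 343 (exact counting interval 61.2 to 13600), and 2 and 111 counts in MC38, a ratio of 50.3 (exact counting interval 13.6 to 420). It reached 13.2 and 13.9 CPM in E0771 and 3.43 and 3.67 CPM in MC38, an agonist-level difference of 1.93 (SE 0.37, adjusted p = 0.00333), while the control levels were at or under the floor of 3 counts in both lines. The effect difference had an interval of -1.02 to 6.34 (adjusted p = 0.7). Ifna4, whose reads are shared within its family, reached 4.20 and 5.47 CPM in E0771 and 1.14 and 1.22 CPM in MC38, an agonist-level difference of 2.02 (SE 0.45, adjusted p = 0.00913). With no E0771 control count it was at least 41-fold higher with the agonist there, against a ratio of 16.8 (exact counting interval 4.32 to 144) in MC38, where 2 control counts were found.

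Of 26 genes of interferon receptors, JAK kinases, STAT and IRF factors and their feedback, 3 had a called higher effect, Irf1 and Usp18 among them, and none a lower one. Stat2, a factor that carries the interferon signal, had an effect difference of 2.03 and missed the threshold (adjusted p = 0.0566), and Irf9 had 0.81 (adjusted p = 0.327). Irf1, an interferon-induced activator of MHC class I genes, had an effect difference of 1.55 (SE 0.15, adjusted p = 0.0138). Usp18, which removes ISG15 and dampens the receptor, went the other way in the level reached. It was at 28.0 and 13.9 CPM in the E0771 control libraries and 599 and 746 with the RIG-I agonist, and at 102 and 95.8 and then 343 and 333 in MC38, so that E0771 was lowest with the control agonist and highest with the RIG-I agonist, and its effect difference was 3.23 (SE 0.39, adjusted p = 0.0222).

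Irf7, the factor that amplifies interferon production and a member of the RNA sensing list, was further apart with the RIG-I agonist. It was at 14.04 and 7.97 CPM in the E0771 control libraries and 481 and 471 with the RIG-I agonist, and at 26.8 and 24.7 and then 158 and 149 in MC38. E0771 controls were below those of MC38 and its agonist libraries above them. The control-level difference was -1.22 (SE 0.22, adjusted p = 0.00236), the agonist-level difference 1.63 (SE 0.19, adjusted p = 0.000341) and the effect difference 2.86 (SE 0.29, adjusted p = 0.0156).

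Of 81 antiviral effector genes tested, 27 had a called higher effect in E0771 and none a lower one, against 0.65% and 0.0153% of all genes tested. Their median effect difference was 1.60 against 0.01 over all genes tested. With the control agonist 65 (80.2%) were called lower in E0771 and 4 higher, against 32.8% and 30.6% of all genes tested. With the RIG-I agonist 30 (37.0%) were called lower and 15 higher, against 31.0% and 30.5%, so the share called lower came near that over all genes tested. The median member went from 13.3 to 137 CPM in E0771 and from 50.9 to 141 CPM in MC38, with a median control-level difference of -2.002 and a median agonist-level difference of -0.07. In their own fits 58 of these genes rose in E0771, where 1.53% of all genes rose and 0.0256% fell, and 76 rose and 3 fell in MC38, where 18.9% rose and 16.9% fell. In 61 of the 81 the first E0771 control library was above the second, against 6319 of all 13082 genes tested. The list's median was 15.5 and 9.59 CPM in these 2 libraries.

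Isg15, a ubiquitin-like modifier, was at 20.1 and 10.1 CPM in the E0771 control libraries and 434 and 439 with the RIG-I agonist, and at 116 and 118 and then 388 and 369 in MC38. The MC38 controls were above both E0771 controls, the agonist groups lay within 2-fold, and the effect difference was 3.15 (SE 0.35, adjusted p = 0.0163) with an agonist-level difference of 0.20 (SE 0.23). Oasl2, a relative of Oasl1, was at 28.1 and 11.5 CPM in the E0771 control libraries and 616 and 668 with the RIG-I agonist, and at 332 and 329 and then 792 and 761 in MC38, with an effect difference of 3.78 (SE 0.46, adjusted p = 0.0224). Oas1g, a 2'-5' oligoadenylate synthetase gene of a family that shares reads, had an effect difference of 4.37 (SE 0.53, adjusted p = 0.0234) and reached 165 and 156 CPM in E0771 and 143 and 139.9 CPM in MC38. Trim30a, a regulator of NF-kB signalling, and Xaf1, a pro-apoptotic gene, were also within 2-fold with the RIG-I agonist, at agonist-level differences of 0.03 (SE 0.21) and -0.05 (SE 0.26), and had effect differences of 2.46 (SE 0.32, adjusted p = 0.0305) and 2.83 (SE 0.41, adjusted p = 0.0392).

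Other effectors stayed lower in E0771. Rsad2, which encodes viperin, was at 24.6 and 12.8 CPM in the E0771 control libraries and 672 and 908 with the RIG-I agonist, and at 448 and 444 and then 1476 and 1526 in MC38. Its control-level difference of -4.57 (SE 0.31) narrowed to -0.93 (SE 0.26), and the effect difference was 3.65 (SE 0.39, adjusted p = 0.0160). Ifit3, whose product binds IFIT1, had the largest rise of the 66 genes in MC38, 4.55 (SE 0.06), and rose by 6.59 (SE 0.23) in E0771. Its effect difference was 2.05 (SE 0.23, adjusted p = 0.0166). Lgals3bp, a secreted galectin-binding protein, and Rnf213, a large ubiquitin ligase, were among the 5 called genes with the highest mean CPM, not corrected for length, with Tapbp, Rsad2 and Oasl2. Rnf213 was at 395 and 350.4 CPM in the E0771 control libraries and 1440 and 1956 with the RIG-I agonist, and at 1449 and 1529 and then 2291 and 2381 in MC38, with an effect difference of 1.54 (SE 0.22, adjusted p = 0.0359), and Lgals3bp had an effect difference of 1.67 (SE 0.13, adjusted p = 0.00686).

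A few effectors reached a higher level in E0771. Ifit1, which binds RNA lacking a methylated cap, was at 15.5 and 9.10 CPM in the E0771 control libraries and 543 and 639 with the RIG-I agonist, and at 78.1 and 76.3 and then 307 and 311 in MC38. E0771 was lowest with the control agonist and highest with the RIG-I agonist, with a control-level difference of -2.65 (SE 0.22), an agonist-level difference of 0.93 (SE 0.19) and an effect difference of 3.58 (SE 0.29, adjusted p = 0.00686). Mx1, a GTPase that blocks virus replication, followed the same order and had an effect difference of 3.20 (SE 0.48, adjusted p = 0.0430), although its E0771 agonist libraries were apart at 82.4 and 154 CPM. Slfn5, a Schlafen gene, was at 12.3 and 9.59 CPM in the E0771 control libraries and 66.0 and 82.8 with the RIG-I agonist, and at 7.86 and 5.37 and then 6.53 and 6.17 in MC38. It rose in E0771 and not in MC38, where the own effect was -0.06 (SE 0.18, adjusted p = 0.818), and the effect difference was 2.83 (SE 0.31, adjusted p = 0.0160).

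Of 19 interferon-inducible GTPases, 11 had a called higher effect and none a lower one, against 0.65% and 0.0153% of all genes tested. All 19 had a positive effect difference, with a median of 3.08. With the control agonist 15 were called lower in E0771 and none higher, against 32.8% and 30.6% of all genes tested. With the RIG-I agonist 5 were called lower and 7 higher, near the 31.0% and 30.5% of all genes tested. The median member went from 1.68 to 119.8 CPM in E0771 and from 10.3 to 69.7 CPM in MC38. The members share reads, so values of single genes are uncertain. Tgtp2, whose effect difference was not called, had no E0771 control count and was at least 154-fold higher with the agonist there, against a ratio of 8.11 (exact counting interval 6.94 to 9.53) in MC38.

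Iigp1, an immunity-related GTPase, was at 0.691 and 0.894 CPM in the E0771 control libraries and 85.8 and 184 with the RIG-I agonist, and at 20.2 and 20.8 and then 159.7 and 154 in MC38. The E0771 agonist libraries lay on both sides of those of MC38, and the effect difference was 4.46 (SE 0.63, adjusted p = 0.0359). Igtp and Irgm1, of the same family, had an effect difference of 3.03 (SE 0.30, adjusted p = 0.0147) and 1.72 (SE 0.25, adjusted p = 0.0430). Tgtp1, a T-cell-specific GTPase, stayed lower in E0771 at 32.3 and 46.4 CPM against 143 and 143 CPM in MC38, and its effect difference was 3.26 (SE 0.43, adjusted p = 0.0305). Its E0771 control libraries held 10 counts together. Gbp4 was at 0.460 and 0.406 CPM in the E0771 control libraries and 30.6 and 43.5 with the RIG-I agonist, and at 1.38 and 1.01 and then 5.79 and 5.48 in MC38. E0771 was the lower line with the control agonist and the higher with the RIG-I agonist, with level differences of -1.45 (SE 0.39) and 2.72 (SE 0.22) and an effect difference of 4.17 (SE 0.43, adjusted p = 0.0156). The control libraries of Gbp4 held 11 counts together in E0771 and 34 in MC38. Gbp5 crossed over in the same way, from a control-level difference of -1.62 to an agonist-level difference of 1.02, with an effect difference of 2.65 (SE 0.33, adjusted p = 0.0249).

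Of 18 genes of cytosolic DNA sensing, 1 had a called effect difference, Ifi208 (ENSMUSG00000066677.12, chromosome 1 at 173673675 to 173698395 on GRCm38), a gene of the PYHIN family whose members share reads. It was at 0.844 and 0.732 CPM in the E0771 control libraries and 39.1 and 48.5 with the RIG-I agonist, and at 0.327 and 0.467 and then 1.22 and 1.17 in MC38. The E0771 agonist libraries stood apart from the other 6, with an agonist-level difference of 5.19 (SE 0.21), whereas the control-level difference of 0.99 was not called (adjusted p = 0.0809). The effect difference was 4.20 (SE 0.45, adjusted p = 0.0160), with 20 control counts in E0771 and 11 in MC38. The list's median effect difference was 0.80, with 8 control levels called lower and 7 higher in E0771, against 32.8% and 30.6% of all genes tested.

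Of 26 genes of MHC class I presentation, 3 had a called higher effect in E0771, Tapbp, Psmb10 and Erap1, and none a lower one. With the control agonist 24 of the 26 were called lower in E0771, against 32.8% of all genes tested, and none higher. With the RIG-I agonist 17 were called lower, against 31.0% of all genes tested, and none higher. The median member went from 32.9 to 153 CPM in E0771 and from 98.6 to 213 CPM in MC38. Tapbp, which encodes tapasin of the peptide-loading complex, was at 99.1 and 53.2 CPM in the E0771 control libraries and 809 and 711 with the RIG-I agonist, and at 866 and 880.1 and then 1423 and 1407 in MC38. The E0771 agonist libraries were below the MC38 controls, and the effect difference was 2.62 (SE 0.36, adjusted p = 0.0329) with an agonist-level difference of -0.90 (SE 0.25). Psmb10, an immunoproteasome subunit, was at 200 and 166 CPM in E0771 and 569 and 531 CPM in MC38 with the RIG-I agonist, with an effect difference of 1.99 (SE 0.19, adjusted p = 0.0138). Erap1, which trims peptides in the endoplasmic reticulum, was at 48.6 and 48.9 CPM in the E0771 control libraries and 132 and 149 with the RIG-I agonist, and at 263 and 264 and then 345 and 362 in MC38 and had an effect difference of 1.11 (SE 0.12, adjusted p = 0.0160).

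The class I heavy chain gene H2-K1 was at 69.7 and 33.2 CPM in the E0771 control libraries and 320.3 and 266 with the RIG-I agonist, and at 1133 and 1092 and then 1977 and 1906 in MC38. E0771 stayed below the MC38 controls even with the RIG-I agonist, and the agonist-level difference was -2.73 (SE 0.31, adjusted p = 0.000265). The effect difference of 1.71 was not called (adjusted p = 0.2), with an interval of 0.73 to 2.68. H2-D1, whose reads can be shared with other H2 genes, had 0.78 (adjusted p = 0.569), and the transporter gene Tap1 had 1.51 (adjusted p = 0.0566). B2m, the light chain gene, was at 696 and 355 CPM in the E0771 control libraries and 1787 and 1339 with the RIG-I agonist, and at 618 and 596 and then 1388 and 1388 in MC38. Its control libraries of E0771 lay on both sides of those of MC38, and the effect difference was 0.38 (interval -0.59 to 1.34, adjusted p = 0.869). Nlrc5, the transactivator of class I genes, had 0.99 (adjusted p = 0.176). None of the 15 constitutive proteasome genes was called, and their median effect difference was -0.05.

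**Figure D4:**
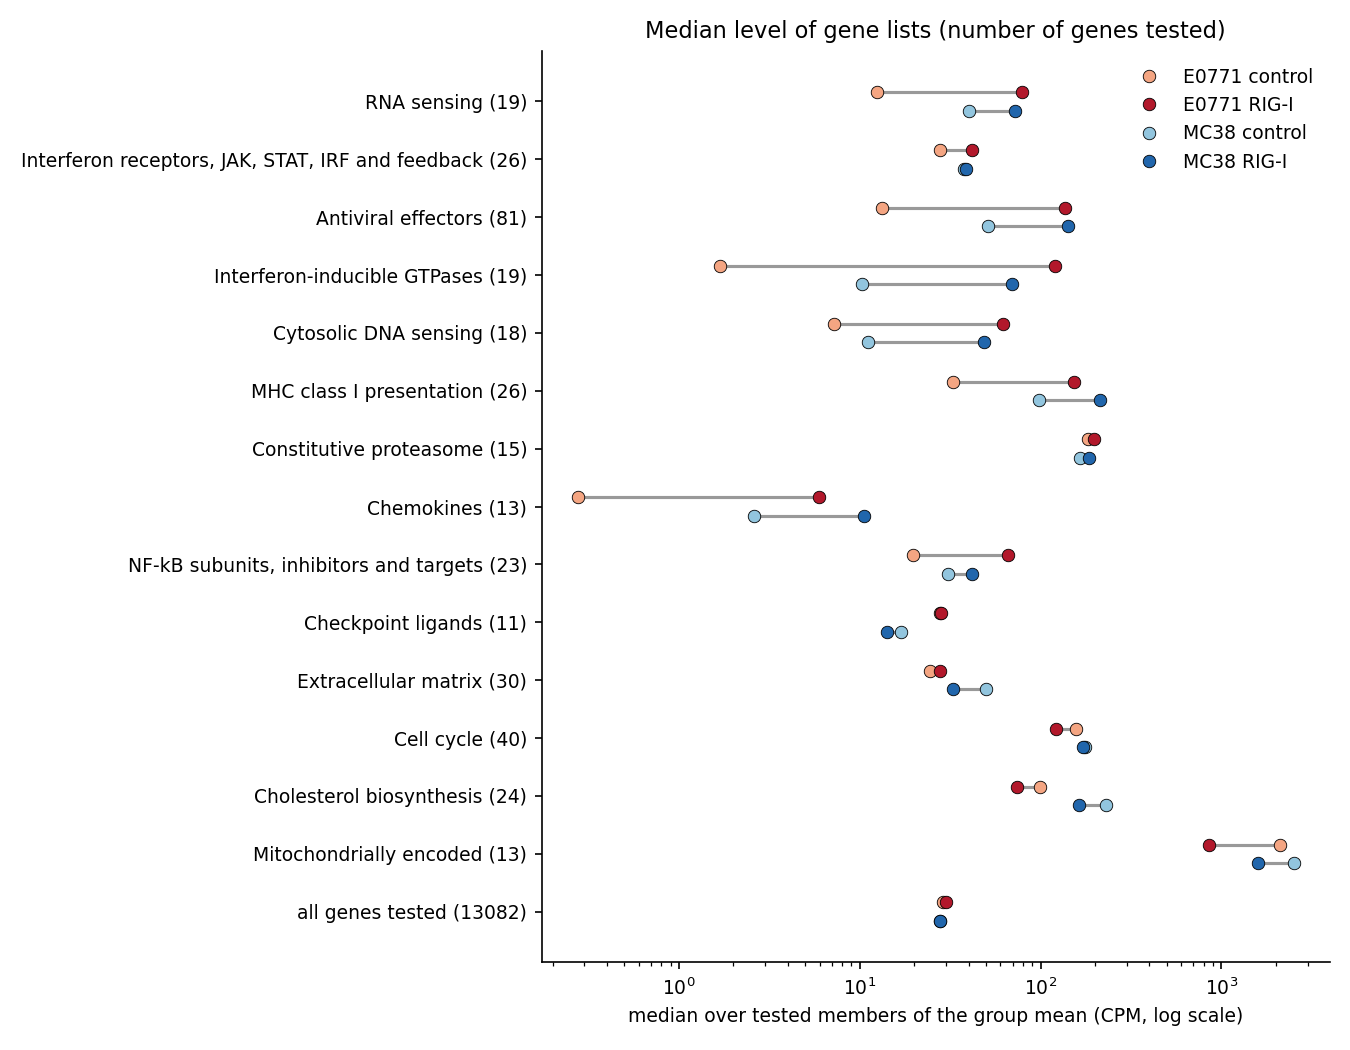
Median over the tested members of a list of the group's mean CPM, on a log axis, with E0771 in the upper and MC38 in the lower row of each pair and the number of genes tested in brackets. In the antiviral list the medians are 13.3 and 137 CPM in E0771 and 50.9 and 141 CPM in MC38, so the lines are further apart with the control agonist than with the RIG-I agonist.

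Of 13 chemokine genes tested, 3 had a called higher effect in E0771, Ccl5, Cxcl10 and Ccrl2, an atypical chemokine receptor gene, and none a lower one. With the control agonist 10 were called lower in E0771, against 32.8% of all genes tested, and none higher. With the RIG-I agonist 7 were called lower and 3 higher, against 31.0% and 30.5% of all genes tested. Ccl5, which attracts T cells, was at 2.76 and 1.87 CPM in the E0771 control libraries and 131 and 93.4 with the RIG-I agonist, and at 21.8 and 18.6 and then 60.9 and 51.8 in MC38. E0771 went from below to above MC38, with a control-level difference of -3.12 (SE 0.27), an agonist-level difference of 0.99 (SE 0.19) and an effect difference of 4.11 (SE 0.33, adjusted p = 0.00686). Cxcl10, a ligand of CXCR3 on T and NK cells, was at 2.69 and 1.79 CPM in the E0771 control libraries and 119.7 and 87.5 with the RIG-I agonist, and at 267 and 266 and then 1187 and 1202 in MC38. All E0771 libraries lay below all MC38 libraries, and the effect difference of 3.36 (SE 0.28, adjusted p = 0.00686) went with an agonist-level difference of -3.53 (SE 0.18, adjusted p = 7.99e-06). Cxcl9, of the same receptor, had 2 control counts in E0771 and 9 in MC38, and reached 8.56 and 3.36 CPM in E0771 and 5.79 and 6.54 CPM in MC38. Its effect difference was not called (interval -1.15 to 4.84, adjusted p = 0.757).

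Of 23 genes of the NF-kB subunits, inhibitors and targets, 2 had a called higher effect, both further apart with the RIG-I agonist, and all 23 had a positive effect difference, with a median of 0.79. Relb, a subunit of the non-canonical pathway, was at 19.9 and 19.4 CPM in the E0771 control libraries and 79.3 and 69.6 with the RIG-I agonist, and at 23.04 and 22.8 and then 35.4 and 31.6 in MC38. The control-level difference was -0.22 (adjusted p = 0.113) and the agonist-level difference 1.15 (SE 0.10), with an effect difference of 1.38 (SE 0.15, adjusted p = 0.0160). Tnip1, which limits NF-kB activation, was at 47.0 and 46.1 CPM in the E0771 control libraries and 158 and 118 with the RIG-I agonist, and at 34.6 and 36.3 and then 40.1 and 43.5 in MC38, with an effect difference of 1.33 (SE 0.20, adjusted p = 0.0430). Nfkbia, the gene of the inhibitor IkBa, had an effect difference of 1.895 that was not called (adjusted p = 0.129). None of 19 cytokine and growth factor genes was called. Tnf was at 2.00 and 0.813 CPM in the E0771 control libraries and 14.9 and 8.18 with the RIG-I agonist, and at 0.0655 and 0.0778 and then 0.326 and 0.532 in MC38, where the MC38 control libraries held 2 counts together.

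Of 11 checkpoint ligand genes none was called. Cd274, which encodes PD-L1, was at 4.07 and 2.28 CPM in the E0771 control libraries and 29.8 and 26.6 with the RIG-I agonist, and at 23.4 and 22.8 and then 67.2 and 63.0 in MC38. It was lower in E0771 with both agonists, with level differences of -2.86 and -1.21, and the effect difference of 1.65 missed the threshold (adjusted p = 0.0686, interval 0.99 to 2.31). Of 17 genes of death receptors, necroptosis and pyroptosis, 1 was called, Tnfsf10. Casp8 was at 32.6 and 36.7 CPM in the E0771 control libraries and 47.1 and 41.9 with the RIG-I agonist, and at 45.2 and 45.5 and then 48.5 and 49.0 in MC38 and its effect difference was 0.26 (adjusted p = 0.674). Tnfsf10, the gene of the death ligand TRAIL, was also the 1 gene called among 8 NK cell receptor ligands. It was at 0.384 and 0.325 CPM in the E0771 control libraries and 16.3 and 29.1 with the RIG-I agonist, and at 7.33 and 7.23 and then 27.9 and 33.2 in MC38. The agonist-level difference was -0.43 (SE 0.25) and the effect difference 3.90 (SE 0.53, adjusted p = 0.0326), with 9 control counts in E0771.

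Of 23 p53 target genes 1 was called. Cdkn1a, which encodes the cell cycle inhibitor p21, was at 56.8 and 52.1 CPM in the E0771 control libraries and 142 and 155 with the RIG-I agonist, and at 39.5 and 39.3 and then 44.5 and 40.4 in MC38. The E0771 agonist libraries stood above the other 6, the own effect in MC38 was 0.11 (SE 0.07, adjusted p = 0.239), and the effect difference was 1.34 (SE 0.13, adjusted p = 0.0141). Txnip, an inhibitor of thioredoxin that stood in no list and was picked after its values were seen, was at 11.9 and 14.8 CPM in the E0771 control libraries and 37.8 and 44.8 with the RIG-I agonist, and at 45.2 and 47.4 and then 44.0 and 45.3 in MC38. The E0771 controls were below the other 6 libraries, and the effect difference was 1.68 (SE 0.19, adjusted p = 0.0160). Acod1, which makes itaconate, went from 0.153 and 0.244 to 15.7 and 11.2 CPM in E0771 and from 0.982 and 0.856 to 4.49 and 4.84 CPM in MC38, and had an effect difference of 3.69 (SE 0.50, adjusted p = 0.0326). Its E0771 control libraries held 5 counts together, near the level not separable from 0, so the SE may understate counting error.

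In 13 genes the higher effect in E0771 came with a fall in MC38. None of the 13 was called in E0771, and their median change there was 0.31 against -0.51 in MC38. The genes of this group described here, other than Klf2, Gdpd5 and Col18a1, were chosen after their values were seen. Rab3gap1, a regulator of RAB3 and RAB18, was at 169 and 181 CPM in the E0771 control libraries and 165 and 165 with the RIG-I agonist, and at 588 and 579.9 and then 309 and 311 in MC38. It fell in MC38 by 0.90 (SE 0.03, adjusted p = 2.79e-15) towards the level of E0771, and the effect difference was 0.83 (SE 0.11, adjusted p = 0.0274). Klf2, a transcription factor of endothelial and immune cells, was at 14.3 and 12.2 CPM in the E0771 control libraries and 15.9 and 16.7 with the RIG-I agonist, and at 16.04 and 16.9 and then 7.67 and 7.88 in MC38. The MC38 agonist libraries were below the other 6, and the effect difference was 1.38 (SE 0.19, adjusted p = 0.0337). Gdpd5, a glycerophosphodiester phosphodiesterase gene, was not called in E0771 (adjusted p = 0.0657), fell in MC38 by 0.40 and had an effect difference of 1.64 (SE 0.21, adjusted p = 0.0260).

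Matrix genes were among the 13. Col7a1, the gene of collagen VII of anchoring fibrils, was at 37.7 and 37.3 CPM in the E0771 control libraries and 32.6 and 41.1 with the RIG-I agonist, and at 109 and 121 and then 50.3 and 51.4 in MC38, with an effect difference of 1.15 (SE 0.17, adjusted p = 0.0430). Col18a1, a basement membrane collagen gene, was at 166 and 161 CPM in the E0771 control libraries and 166 and 157 with the RIG-I agonist, and at 85.9 and 86.5 and then 52.6 and 53.8 in MC38, with 0.68 (SE 0.10, adjusted p = 0.0450). Pxdn, which crosslinks collagen IV, had an effect difference of 0.99 (SE 0.15, adjusted p = 0.0452). Of the 30 genes of the extracellular matrix list 1, Col18a1, was called, and the median effect difference was 0.37, with 15 genes called lower with the agonist in MC38, where 16.9% of all genes fell, and none in E0771, where 0.0256% did. Rhob, a small GTPase gene of endosomes, was at 185 and 222 CPM in the E0771 control libraries and 324 and 316 with the RIG-I agonist, and at 84.2 and 85.2 and then 64.0 and 58.3 in MC38, was higher in E0771 with both agonists, with level differences of 1.26 and 2.39, and had an effect difference of 1.12 (SE 0.15, adjusted p = 0.0317). Slc9a8, a sodium and proton exchanger gene, had an effect difference of 0.94 (SE 0.13, adjusted p = 0.0325).

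The 2 genes with a lower effect in E0771 were Hid1 and Stmn1, both further apart with the RIG-I agonist. Hid1, which acts in the formation of secretory granules, was at 6.98 and 9.02 CPM in the E0771 control libraries and 4.75 and 4.09 with the RIG-I agonist, and at 34.6 and 36.9 and then 76.0 and 71.4 in MC38. Its own change was 1.05 (SE 0.06) in MC38, where it rose, and -0.86 (SE 0.28, adjusted p = 0.38) in E0771, so the effect difference was -1.90 (SE 0.21, adjusted p = 0.0160). Stmn1, which encodes the microtubule regulator stathmin, was at 118 and 109.8 CPM in the E0771 control libraries and 62.3 and 56.3 with the RIG-I agonist, and at 147 and 138 and then 140.4 and 139 in MC38. The E0771 agonist libraries were below the other 6, and the effect difference was -0.92 (SE 0.12, adjusted p = 0.0310). Stmn1 was 1 of the 3 genes called lower in E0771 itself.

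**Figure D5:**
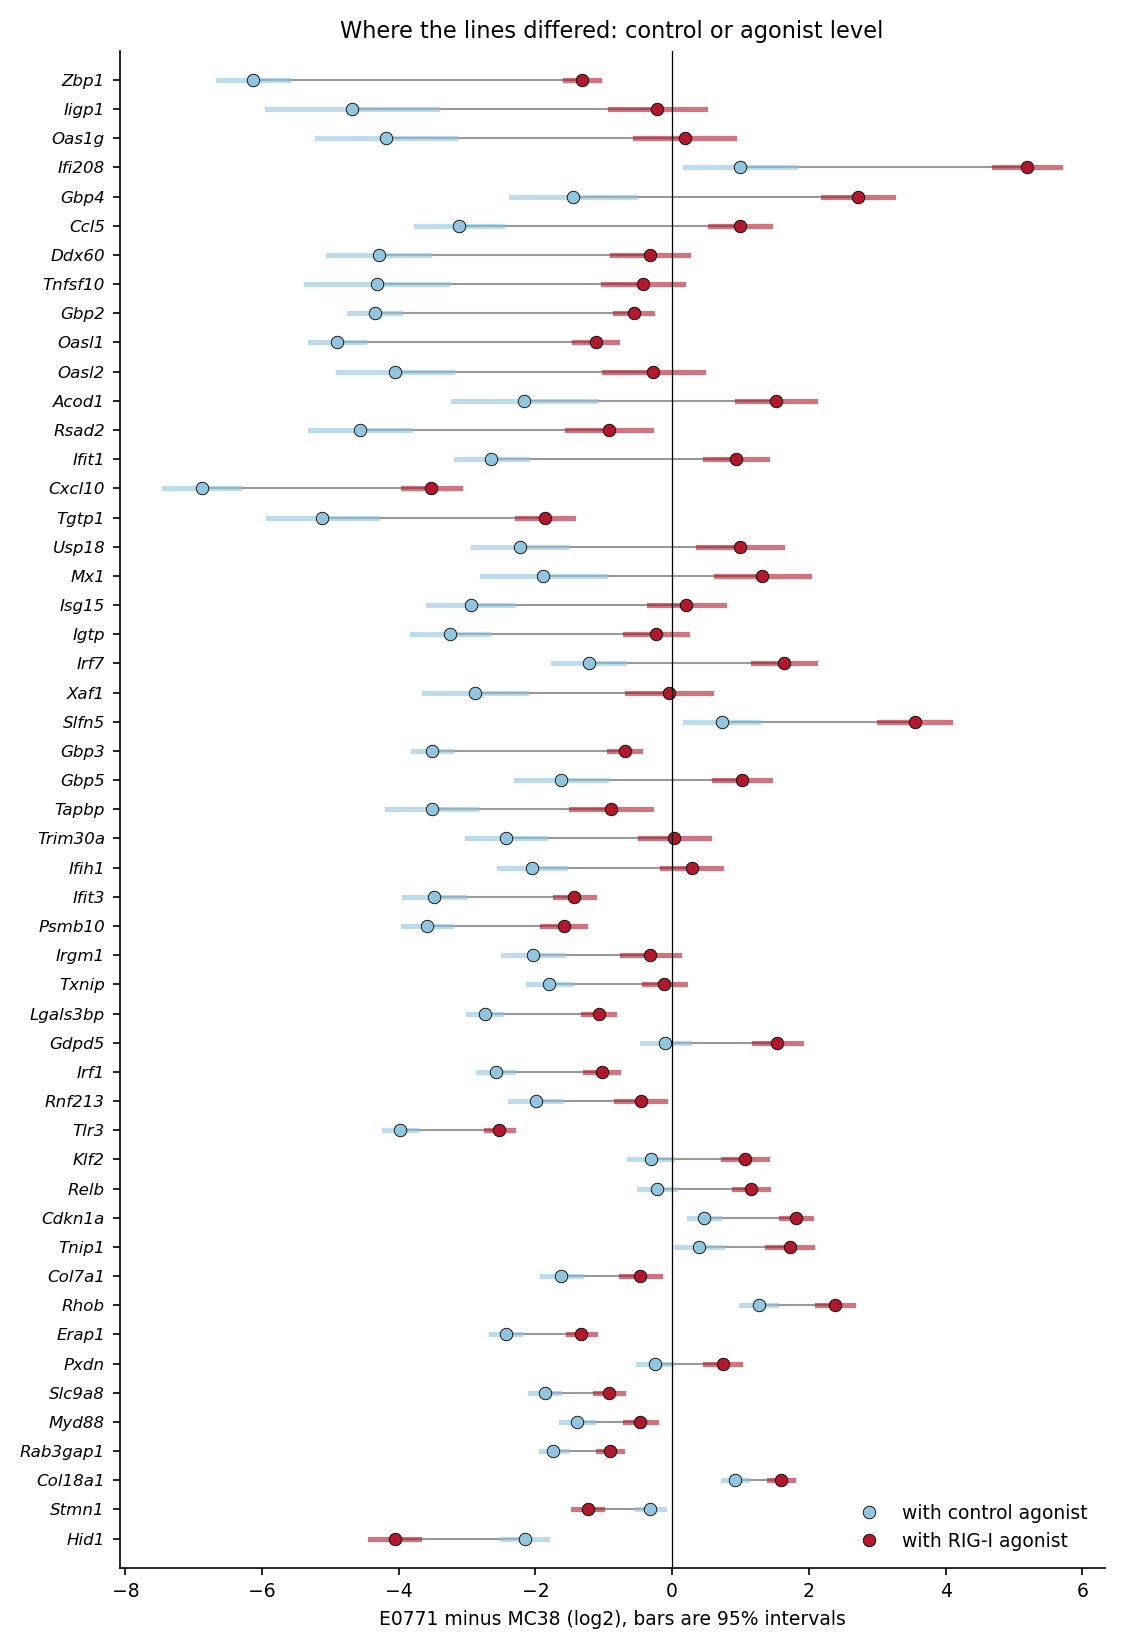
Control-level difference (blue) and agonist-level difference (red), E0771 minus MC38 on the log2 scale with 95% intervals, for the named genes with a called effect difference other than Kalrn and Gm20683, in the order of that difference, which is the length of the grey line. For Iigp1, Oas1g and Ddx60 the red point lies near 0 and the blue point well below it, while for Ifi208 and Slfn5 the blue point lies nearer 0 than the red one.

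In 2 called genes the E0771 controls had no count. Gm20683 had 48 counts with the agonist in E0771, at least 15.3-fold more, and 137 and 77 counts in MC38, a ratio of 0.509 (exact counting interval 0.380 to 0.678). Kalrn, the gene of a guanine nucleotide exchange factor, had 30 counts with the agonist in E0771, at least 9.54-fold more, and 284 and 295 counts in MC38, a ratio of 0.941 (interval 0.797 to 1.11). Both stayed under 2 CPM in E0771, and their fitted differences depend on the prior count.

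Gene lists outside the interferon response held few calls, and 21 of the 35 lists held none. Mitochondrially encoded genes were lower with the agonist in both lines, with medians of -1.70 in E0771 and -0.72 in MC38, and the fall was called for all 13 in MC38 and for none in E0771. The E0771 replicates were far apart, at medians of 966 and 2887 CPM in the control libraries and 300.5 and 1418 CPM with the RIG-I agonist. RIG-I library 2 was thus above control library 1, and none of the 13 was higher in library 1 than in library 2 with either agonist. None of their effect differences was called. Their removal before scaling gave 92 genes with a higher and 2 with a lower effect. None of the 40 cell cycle genes, 25 genes of MYC and ribosome biogenesis, 31 of ER stress or 24 of cholesterol biosynthesis was called, with median effect differences of -0.13, -0.11, -0.14 and -0.10. In cholesterol biosynthesis 23 of the 24 fell in MC38, against 16.9% of all genes, and none in E0771, against 0.0256%, by the test of each line, while the medians were -0.42 and -0.50.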

How the data were processed

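The deposited tables hold estimated counts per gene, 1 table per cell line, and these expected counts are mostly whole numbers. Salmon, DESeq2 and the GRCm38 build are named in the submitters' processing notes, with no role or version, and the steps between reads and tables are not given in the sources used here. Of 34866 gene identifiers, 34582 matched an annotated gene by identifier with or without its version, and no column of values was left without a sample.

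Expected counts were rounded to whole numbers. Genes were kept by filterByExpr with a minimum count of 10, scaled by trimmed mean of M values (TMM), and tested with edgeR 4.0.16 (R 4.3.3), quasi-likelihood fit with robust spread, over 8 libraries in 4 groups. The effect difference, the control-level difference and the agonist-level difference are contrasts of that fit, and effects within a line come from a fit of its 4 libraries. Adjusted p-values are Benjamini-Hochberg over all genes of a fit. Intervals around log2 differences are 95%. CPM uses the scaled totals. A count of 0 was bounded by a floor of 3 counts per group, and floors and counting intervals cover counting error only. The procedure was tested on simulated data.

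A called gene was assigned to the control level where that difference was the larger in size, and otherwise to the agonist level. Named were members of the gene lists, the 5 most abundant called genes, and, of each kind and direction, the 6 protein-coding genes with the largest called effect difference among those at a mean of 5 CPM or more in a group and above 3 counts in every group. The comparison, its lists and its named genes were chosen with earlier results of these data known. Alternatives were other scalings, filters and spreads, DESeq2 1.42.0, limma 3.58.1, all 14 libraries, a replicate block and each library left out. Promoter sequences come from RefSeq on GRCm38.p6 and were matched by symbol. Results of some genes are not reported here.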

Additional observations from a re-analysis of the deposited data

Results flagged for a closer look

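The change with the RIG-I agonist differed between the lines by the test of the difference in 85 genes with a higher and 2 with a lower effect in E0771. The named genes among them are given here by their effect difference on the log2 scale, and the part of line, medium and library quality in them cannot be told apart.

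Among sensors and signalling genes the effect difference was 4.81 for Zbp1, 3.97 for Ddx60, 3.23 for Usp18, 2.86 for Irf7, 2.33 for Ifih1, 1.55 for Irf1, 1.46 for Tlr3 and 0.92 for Myd88. In cytosolic DNA sensing it was 4.20 for Ifi208. Among antiviral effectors it was 4.37 for Oas1g, 3.79 for Oasl1, 3.78 for Oasl2, 3.65 for Rsad2, 3.58 for Ifit1, 3.20 for Mx1, 3.15 for Isg15, 2.83 for Xaf1, 2.83 for Slfn5, 2.46 for Trim30a, 2.05 for Ifit3, 1.67 for Lgals3bp and 1.54 for Rnf213. Among the GTPases it was 4.46 for Iigp1, 4.17 for Gbp4, 3.79 for Gbp2, 3.26 for Tgtp1, 3.03 for Igtp, 2.82 for Gbp3, 2.65 for Gbp5 and 1.72 for Irgm1.

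In antigen presentation and chemokines the effect difference was 2.62 for Tapbp, 1.99 for Psmb10, 1.11 for Erap1, 4.11 for Ccl5 and 3.36 for Cxcl10. It was 3.90 for Tnfsf10, 3.69 for Acod1, 1.68 for Txnip, 1.38 for Relb, 1.34 for Cdkn1a and 1.33 for Tnip1. Among the genes that fell in MC38 it was 1.64 for Gdpd5, 1.38 for Klf2, 1.15 for Col7a1, 1.12 for Rhob, 0.99 for Pxdn, 0.94 for Slc9a8, 0.83 for Rab3gap1 and 0.68 for Col18a1. Gm20683 and Kalrn had fitted values of 8.65 and 7.07, which rest on E0771 controls without a count and depend on the prior count. The effect was lower in E0771 by -1.90 for Hid1 and -0.92 for Stmn1.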

How the results depend on the processing

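All 85 genes with a higher effect in E0771 kept their direction under every alternative run, while the number called moved. Genes with a higher and a lower effect numbered 223 and 13 with DESeq2, which left 508 adjusted p-values not given, 265 and 44 with all 14 libraries in the fit, and 393 and 102 with no filter on low counts. With limma voom and a spread per line they numbered 103 and 1, and 62 of the 85 stayed called. The split into control-level and agonist-level genes was 175 and 48 with DESeq2, 206 and 59 with all 14 libraries, 264 and 129 with no filter, and 78 and 25 with limma. Leaving out 1 of the 8 libraries gave 4 to 144 genes with a higher effect, 0 to 8 with a lower one, 4 to 111 control-level and 0 to 33 agonist-level genes. The low ends came without an MC38 library, where a group of 1 is assumed to vary like the others, and where 170 to 211 genes had a lower effect at an unadjusted p under 0.05 by edgeR. Within E0771, 525 genes rose and 176 fell with 1 spread shared by both lines, 371 and 47 with DESeq2 and 264 and 22 with no filter, and leaving out 1 library gave 159 to 212 and 2 to 8. Within MC38, 250 rose and 97 fell with a shared spread, and 1270 and 992 with DESeq2. With the replicate number as a block within each line, 684 genes had a higher and 305 a lower effect, split into 408 and 276, while 68 of the 85 stayed called, and in E0771 alone 1243 rose and 1215 fell. The labels give the numbers no meaning beyond a name, and the deviations of same-numbered libraries had a correlation of 0.558 in E0771 and -0.038 in MC38. The effect difference reversed for Ifnb1, to -0.52 without MC38 control 2 in a range of -0.52 to 5.10 over the libraries left out, and for B2m, to -0.035 without E0771 control 2 in a range of -0.035 to 0.94. The cause of these changes was not tested. A total of 12347361 counts in the shallowest library puts 3 counts at 0.243 CPM, under which levels were not separable from 0.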
